A study of Mus musculus with 20 samples.

Results

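The transcripts described are those of 10 genes of the hypoxia response, found by their names in the annotation of the array among 27827 gene names. They are Hif1a, Epas1 and Arnt, which encode subunits of the hypoxia-inducible factors (HIF), Egln1 and Egln3, which encode the prolyl hydroxylases that mark the alpha subunits for destruction, and 5 genes with hypoxia-inducible transcription, namely Vegfa, Adm, Bnip3, Ndrg1 and Ak3l1. Total kidney RNA of C57BL/6 mice was hybridised to single-colour Agilent arrays, with 4 arrays in each of 5 groups. The study's methods give male mice of 8 to 12 weeks. For Control mice no surgery or treatment is recorded. IRI mice had both renal pedicles clamped for 45 min and were killed 6 h after reperfusion. IRI+Hemin mice had the same surgery 24 h after 25 mg/kg of Hemin, an inducer of heme oxygenase 1, given into the peritoneum. IPC+IRI mice had 15 min of ischemia 7 days before the same 45 min of ischemia and 6 h of reperfusion, and Hemin mice received Hemin without surgery. No group is described as a sham operation, so ischemia cannot be told apart from anesthesia and incision. The labels do not say whether each array held the RNA of 1 mouse, so the p-values measure the spread between arrays, which may be technical.

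HIF is a dimer of an oxygen-labile alpha subunit (Hif1a or Epas1) and a stable partner (Arnt). With oxygen present, the Egln enzymes hydroxylate the alpha subunit, the Vhl ubiquitin ligase binds it, and the proteasome destroys it. When oxygen falls the dimer accumulates and binds short DNA motifs beside genes of glycolysis, vessel growth, red cell formation and mitochondrial turnover. In the kidney, whose medulla lies near hypoxia at rest, Hif1a protein is known mainly from tubule cells and Epas1 protein from endothelial and interstitial cells. Since the alpha subunits are controlled largely through protein stability, an array reads only their transcripts.

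All values below are on one scale. The log2 level of a gene is the log2 of its mean background-subtracted signal divided by the 75th percentile of the array, so that 0 lies at this percentile, and a difference is a difference of such levels. Means are given with the SD over 4 arrays. Differences were tested with limma on all genes, and a gene was called higher or lower at a Benjamini-Hochberg adjusted p below 0.05. The 75th percentile ran from 146.7 to 357.9 intensity units over the 20 arrays. Replicate arrays correlated at 0.975 to 0.995 over the 14532 genes with no missing value that were well above background on every array. The groups sat on separate slides, and an effect of the slide cannot be told apart from that of the group. Control and IRI were scanned on 1 day, IPC+IRI and Hemin on another, and IRI+Hemin on a day of its own. All 8 proximal tubule markers and all 3 of the thick limb were well above background on every array. The summed level of 6 leukocyte markers was -0.57 to -0.083 in Control and -0.39 to 0.97 in Hemin, against 1.83 to 3.15 in IRI, 1.44 to 3.41 in IRI+Hemin and 2.74 to 4.33 in IPC+IRI. The summed level of 3 adipose markers varied between single arrays of each group and ran from -5.11 to 6.16 over all 20. In whole tissue, fewer cells of a type and less RNA per cell cannot be told apart.

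The promoters of the 5 members called in IRI vs Control are shown because HIF is known to act at such regions. Each line gives the 250 bases before the transcription start, from the RefSeq table on GRCm38.p6, read 5′ to 3′ on the strand of the gene. Capitals mark the core letters of the hypoxia response element, ACGTG or GCGTG on either strand, so that a match on the opposite strand reads CACGT or CACGC here. Where both strands hold a match at the same place, it counts as 2. Adm is at chr7:110627407-110627656 (plus strand), Hif1a at chr12:73907617-73907866 (plus), Bnip3 at chr7:138909507-138909756 (minus), Egln3 at chr12:54203875-54204124 (minus) and Vegfa at chr17:46032378-46032627 (minus, the first of 2 starts listed).
Adm: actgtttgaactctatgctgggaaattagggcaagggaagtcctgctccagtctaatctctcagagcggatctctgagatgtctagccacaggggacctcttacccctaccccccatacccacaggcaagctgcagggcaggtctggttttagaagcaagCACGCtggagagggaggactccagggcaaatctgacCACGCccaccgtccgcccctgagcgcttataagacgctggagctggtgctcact
Hif1a: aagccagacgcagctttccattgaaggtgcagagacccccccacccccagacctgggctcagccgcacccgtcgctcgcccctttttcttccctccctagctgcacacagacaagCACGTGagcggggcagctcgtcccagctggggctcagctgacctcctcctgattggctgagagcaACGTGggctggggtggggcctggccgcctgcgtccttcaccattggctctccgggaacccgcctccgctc
Bnip3: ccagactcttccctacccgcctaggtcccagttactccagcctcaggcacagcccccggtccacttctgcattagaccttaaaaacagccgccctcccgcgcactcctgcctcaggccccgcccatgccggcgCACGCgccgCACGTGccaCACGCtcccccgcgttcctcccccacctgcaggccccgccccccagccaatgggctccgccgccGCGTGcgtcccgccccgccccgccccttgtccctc
Egln3: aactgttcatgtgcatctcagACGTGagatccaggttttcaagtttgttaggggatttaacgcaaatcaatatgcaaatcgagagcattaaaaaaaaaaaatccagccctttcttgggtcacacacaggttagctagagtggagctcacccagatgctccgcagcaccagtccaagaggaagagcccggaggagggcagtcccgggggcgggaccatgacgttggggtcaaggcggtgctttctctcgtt
Vegfa: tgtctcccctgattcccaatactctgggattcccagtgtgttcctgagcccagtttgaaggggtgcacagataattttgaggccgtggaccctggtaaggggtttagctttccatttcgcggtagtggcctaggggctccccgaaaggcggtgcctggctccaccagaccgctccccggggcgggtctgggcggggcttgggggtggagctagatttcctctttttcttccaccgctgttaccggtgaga
The Adm window held 2 matches, 90 and 54 bases before the start. Bnip3 held 5, 3 matches lay in Hif1a, 1 in Egln3, 229 bases before the start, and none in the Vegfa window shown. The other start of Vegfa had 2. Of 32841 promoters of this length in the table, 38.6% held at least 1 match and 16.7% held 2 or more. Entries were found for 8 of the 10 members, all but Epas1 and Ndrg1, with 12 promoters, of which 11 held a match. Each of the 8 had a match at 1 start or more. Vegfa had its matches only at the second start listed, which lies downstream of the first. The 38.6% is a share of promoters and not of genes, and several members had more than 1 start. The letters are a description of the sequence and no measure of binding.

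After ischemia and reperfusion alone, Adm and Hif1a rose clearly, Bnip3 and Egln3 rose slightly and Vegfa fell. The calls of Egln3, Bnip3 and Vegfa were lost under 6, 3 and 2 of 11 alternative settings, as given with each gene. Adm, which encodes the vasodilator peptide adrenomedullin, was 3.99-fold higher in IRI than in Control, and Hif1a was 2.11-fold higher. Hif1a and Adm were lower in IPC+IRI and in IRI+Hemin than in IRI alone, and both of these Adm calls were lost under 3 settings. Ak3l1, now named Ak4, encodes an adenylate kinase of the mitochondrial matrix, and it was 8.72-fold lower in IRI+Hemin than in IRI and 3.08-fold lower in IPC+IRI than in IRI. The first of these rested partly on 1 array, as the log2 difference was -3.12 with it and -2.33 without it. Every comparison of IPC+IRI or IRI+Hemin with IRI crossed scan days.

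In IRI vs Control, 4 members were called higher and 1 lower, where 17.1% of the 17712 genes tested were higher and 33.9% lower. In IPC+IRI vs IRI, 1 member was higher and 4 were lower, beside 26.3% higher and 17.8% lower of all genes. For IPC+IRI vs Control, the members gave 2 higher and 4 lower, and all genes 23.3% and 32.8%. For IRI+Hemin vs IRI, 3 were higher and 4 lower, with 26.3% and 18.1% of all genes. In Hemin vs Control no member was called higher and 3 were lower, while 18.5% of all genes were higher and 17.6% lower. Comparisons that share a group share its 4 arrays. With 10 members, 1 gene is 10% of the list, and the shares of members and of all genes were not tested against each other. The split of all genes moved with the background correction, as 3022 were higher and 6004 lower in IRI vs Control, against 1789 and 1397 with normexp. All 10 members passed the filter on dim genes and were well above background on 20 of 20 arrays.

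**Figure D1:**
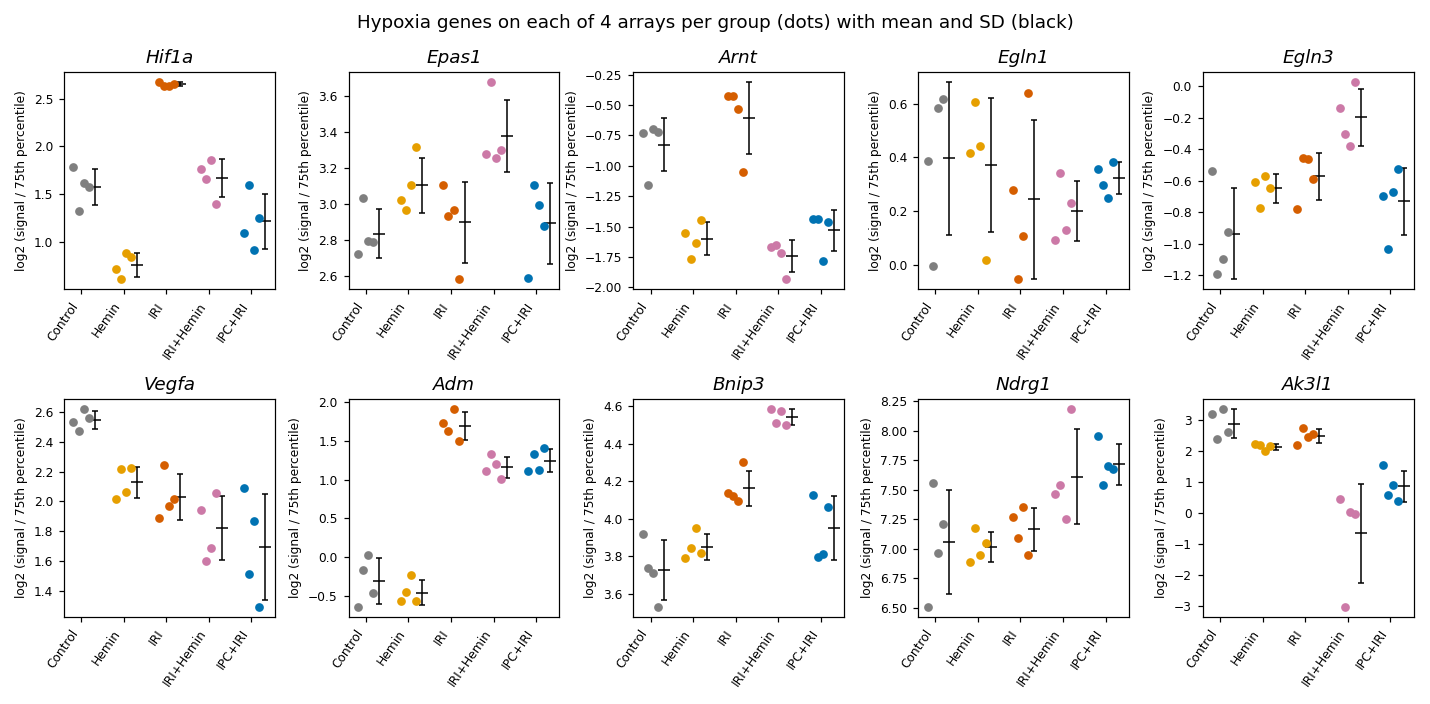
Log2 level of each member (signal over the 75th percentile of the array, vertical axis, a scale for each panel) on the 4 arrays of each group (dots), with the group mean and SD in black. The 4 IRI arrays of Hif1a sit between 2.63 and 2.68, above all other arrays, and 1 IRI+Hemin array of Ak3l1 lies at -3.02, far below the other 3.

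Hif1a encodes the alpha subunit whose protein falls within minutes of reoxygenation. Its probe lies on chromosome 12 from 75047269 to 75047329 of mm9, the build of the array annotation. Its log2 levels were 1.78, 1.32, 1.62 and 1.58 on the Control arrays and 2.68, 2.64, 2.63 and 2.65 on the IRI arrays. They were 1.77, 1.66, 1.86 and 1.39 in IRI+Hemin, 1.10, 1.60, 0.91 and 1.25 in IPC+IRI, and 0.71, 0.61, 0.89 and 0.84 in Hemin. The IRI arrays stood above and the Hemin arrays below every other array, while Control, IRI+Hemin and IPC+IRI overlapped.

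Hif1a rose by 1.08 (standard error 0.14, limma adjusted p = 6.22e-06) in IRI against Control. It was lower in IPC+IRI than in IRI by a difference of -1.43 (standard error 0.14, limma adjusted p = 2.04e-06), and in IRI+Hemin than in IRI by -0.98 (limma adjusted p = 3.73e-05). All 3 red blood cell markers were called lower in IPC+IRI vs IRI (-1.71 to -1.60), with summed levels of 3.40 to 5.76 against 6.25 to 6.60, and of 7 endothelial markers 4 were called lower and 1 higher. Their part in the differences of Hif1a, Adm and Ak3l1 in this comparison was not tested. Hemin alone lay under Control by -0.81 (limma adjusted p = 0.000383). With Hemin given to both groups, ischemia was again accompanied by more Hif1a, by 0.91 (limma adjusted p = 5.98e-05). The interaction, which asks whether the IRI difference changed with Hemin, was -0.17 (95% interval -0.58 to 0.25). Thus the Hemin and IRI+Hemin arrays were both lower than their counterparts without Hemin, by amounts whose difference did not pass the test. Of the Hif1a differences in this paragraph, only that of IRI from Control lay within a scan day. For the others, group and scan day cannot be told apart. Against Control, IPC+IRI was lower by -0.36 (limma adjusted p = 0.0344). This call was lost without Control replicate 1, 3 or 4 or without IPC+IRI replicate 1 or 3, when the difference was -0.36 to -0.26, and also with normexp (-0.26), in the deposited log2 table (-0.41), with the arrays of the compared groups alone and with no normalization between arrays, where it was 0.078. Without that normalization, the calls in IRI+Hemin vs IRI (-0.62) and in Hemin vs Control (-0.25) were lost too.

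Epas1 encodes the HIF-2 alpha subunit, the factor known to drive erythropoietin transcription in renal interstitial cells. Its levels ran from 2.72 to 3.03 in Control, 2.58 to 3.11 in IRI, 2.59 to 3.11 in IPC+IRI and 2.96 to 3.32 in Hemin, with all of these groups overlapping. The IRI+Hemin arrays lay at 3.28, 3.68, 3.26 and 3.30, above every IRI array. The difference from IRI was 0.48 (standard error 0.14, limma adjusted p = 0.00966), and 0.38 (limma adjusted p = 0.0394) without the replicate at 3.68. IRI and Control differed by 0.062 (95% interval -0.23 to 0.36). The endothelial markers moved in the same comparison, since their summed level was 4.25 to 4.70 in IRI+Hemin and 3.73 to 4.27 in IRI, with 2 of 7 called higher and 1 lower, and their part in the Epas1 result was not tested.

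The 3 probes of Epas1 did not read the same change. The brightest one, A_51_P250058 (chromosome 17 from 87232615 to 87232674), gave 0.48 in IRI+Hemin vs IRI and A_52_P293443 (from 87198057 to 87198116) gave 0.62. The third, A_51_P307954 (from 87230808 to 87230867), gave -1.33 in this comparison and -1.99 in IPC+IRI vs IRI, both called. It was well above background on 2 of 4 IPC+IRI arrays and on all 16 others, so its level in IPC+IRI is uncertain. When the log2 values of the probes were averaged, so that this dim probe weighed as much as the others, the difference in IRI+Hemin vs IRI was -0.077, and in the deposited log2 table it was -0.31. That averaging also gave calls in IPC+IRI vs IRI (-0.57), IPC+IRI vs Control (-0.50) and IPC+IRI vs Hemin (-0.54), which were not called without it.

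Arnt encodes the partner that the alpha subunits share. Its levels were -0.73, -1.15, -0.70 and -0.72 in Control and -0.42, -0.43, -0.53 and -1.05 in IRI. They were -1.66, -1.65, -1.71 and -1.93 in IRI+Hemin, -1.44, -1.44, -1.79 and -1.47 in IPC+IRI, and -1.55, -1.76, -1.64 and -1.45 in Hemin. All 8 arrays of the first scan day stood above all 12 arrays of the later days.

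The difference was -0.93 (limma adjusted p = 9.12e-05) in IPC+IRI vs IRI, -1.14 (limma adjusted p = 1.63e-05) in IRI+Hemin vs IRI and -0.77 (limma adjusted p = 0.000767) in Hemin vs Control. Within a scan day it was 0.22 (95% interval -0.083 to 0.52) in IRI vs Control and 0.067 (95% interval -0.24 to 0.37) in IPC+IRI vs Hemin. Without IRI replicate 4 the value in IRI vs Control was 0.37 (limma adjusted p = 0.0252) and called, and without Control replicate 2 it was 0.11. Both within-day values also depended on how the probes were combined. With the log2 values of the probes averaged they were 0.44 (limma adjusted p = 0.00388) and 0.48 (limma adjusted p = 0.00358), both called, and IRI+Hemin vs Hemin went from -0.14, not called, to 0.56, called. With the brightest probe alone that comparison was called in the other direction, at -0.57 (limma adjusted p = 0.0123). Averaging the log2 values also ended the call in IPC+IRI vs Control, which was -0.70 and became -0.072. With no normalization the calls in IPC+IRI vs IRI (-0.61), IPC+IRI vs Control (-0.27) and Hemin vs Control (-0.21) were lost, the last also in the deposited log2 table (-0.53). Control and IRI alone were scanned on the first day and alone had neither Hemin nor IPC, so treatment and scan day cannot be told apart for Arnt.

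The gene value of Arnt was carried by its brightest probe, A_52_P324866 (chromosome 3 from 95300932 to 95300991), and the others differed from it. A_51_P494196 (from 95299433 to 95299493) rose in IRI vs Control, by 1.06 (limma adjusted p = 7.55e-05), and was lower by -1.25 in IPC+IRI vs IRI. A_52_P84015 (from 95289063 to 95289122), well above background on 3 of 4 arrays each in Control, IRI and Hemin and on all others, was higher in IPC+IRI than in IRI, by 0.68 (limma adjusted p = 0.00259), and higher in IRI+Hemin than in IRI by 0.89. The probe A_52_P577150, whose 60 bases are spread between 95294565 and 95294991 and so span an intron, differed by 0.013 (95% interval -0.30 to 0.33) in IRI+Hemin vs IRI. It was called lower in IPC+IRI vs IRI (-0.43) and Hemin vs Control (-0.43) and higher in IRI+Hemin vs Hemin (0.62). Its sequence is shown because a probe across an intron reads spliced transcript.
A_52_P577150: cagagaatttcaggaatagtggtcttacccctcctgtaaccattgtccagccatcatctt

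Egln1 encodes the hydroxylase that sets the level of Hif1a protein under normal oxygen. Its 2 probes lie on chromosome 8, and its levels were -0.0023 to 0.62 in Control, -0.053 to 0.64 in IRI, 0.094 to 0.34 in IRI+Hemin, 0.25 to 0.38 in IPC+IRI and 0.019 to 0.61 in Hemin. The groups overlapped in every comparison. No comparison called Egln1, and the differences of all 7 pairs of groups lay between -0.17 and 0.079. For IRI vs Control the 95% interval ran from -0.48 to 0.18.

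Egln3 encodes the sister enzyme, whose own transcription is known to rise with hypoxia. Its probe lies on chromosome 12 from 55280953 to 55281012. Its levels were -1.19 to -0.54 in Control, -0.78 to -0.45 in IRI, -0.38 to 0.030 in IRI+Hemin, -1.03 to -0.53 in IPC+IRI and -0.77 to -0.57 in Hemin. The IRI+Hemin arrays stood above all IRI and all Hemin arrays, and the other groups overlapped. The differences were 0.37 (standard error 0.14, limma adjusted p = 0.0396) in IRI vs Control, 0.37 (limma adjusted p = 0.0398) in IRI+Hemin vs IRI and 0.45 (limma adjusted p = 0.0163) in IRI+Hemin vs Hemin. The call in IRI vs Control was lost under 6 of 11 alternative settings (0.18 to 0.49), and without Control replicate 2, 3 or 4 or IRI replicate 2, 3 or 4, when the difference was 0.28 to 0.37. The call in IRI+Hemin vs IRI was lost under 5 of them (0.30 to 0.37), and without IRI replicate 1 or 4 or IRI+Hemin replicate 1 or 4, when it was 0.30 to 0.37. The call in IRI+Hemin vs Hemin was lost with no normalization (0.37).

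Adm stood higher in the 3 injured groups than in the 2 without ischemia. Its probe lies on chromosome 7 from 117773088 to 117773147. Its levels were -0.63, -0.17, 0.028 and -0.46 in Control and -0.56, -0.45, -0.23 and -0.57 in Hemin. They were 1.72, 1.62, 1.91 and 1.49 in IRI, 1.11, 1.32, 1.20 and 1.01 in IRI+Hemin and 1.11, 1.33, 1.12 and 1.40 in IPC+IRI. All 12 arrays after ischemia stood above all 8 without it, and the 4 IRI arrays stood above the other 8.

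Adm rose by 2.00 (standard error 0.14, limma adjusted p = 7.32e-09) in IRI against Control, by 1.55 in IPC+IRI against Control (limma adjusted p = 1.59e-07) and by 1.61 in IRI+Hemin against Hemin (limma adjusted p = 1.97e-07). It was lower in IPC+IRI than in IRI by a difference of -0.45 (limma adjusted p = 0.0145) and in IRI+Hemin than in IRI by -0.53 (limma adjusted p = 0.00517). These 2 smaller differences crossed scan days, and both lost their calls with normexp background correction (-0.22 and -0.18), with no normalization (-0.13 and -0.16) and in the deposited log2 table (-0.31 and -0.33), where the rise over Control kept its call. The call in IPC+IRI vs IRI was also lost without IRI replicate 3 (difference -0.37, limma adjusted p = 0.0542). Leukocyte markers rose with Adm after ischemia, with 3 of 5 tested called higher in IRI vs Control and none lower. Their part in the Adm and Hif1a results was not tested. None of 6 leukocyte markers was called in IRI+Hemin vs IRI, and in IPC+IRI vs IRI Itgam was higher (1.46, from 2 of 4 IRI arrays well above background) and Cd68 lower (-0.82).

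Vegfa encodes the endothelial growth factor and is a textbook HIF target, and it was lower in IRI, IPC+IRI and Hemin than in Control. Its levels were 2.54, 2.48, 2.62 and 2.56 in Control, 1.89, 2.25, 1.97 and 2.01 in IRI and 2.02, 2.22, 2.06 and 2.22 in Hemin. They were 1.94, 1.60, 1.69 and 2.06 in IRI+Hemin and 2.09, 1.52, 1.87 and 1.29 in IPC+IRI. Control stood above all 16 other arrays, and the other groups overlapped.

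The difference from Control was -0.52 (standard error 0.15, limma adjusted p = 0.00694) in IRI, -0.85 (limma adjusted p = 0.000105) in IPC+IRI and -0.42 (limma adjusted p = 0.0342) in Hemin. Within the later scan day, IPC+IRI was below Hemin by -0.44 (limma adjusted p = 0.0274). IRI+Hemin vs Hemin gave -0.31 (95% interval -0.62 to 0.0034), which was not called. The Hemin call was lost without Control replicate 1, 3 or 4 or Hemin replicate 1 or 3, when the difference was -0.42 to -0.38. It was also lost with normexp (-0.27) and with the log2 values of the probes averaged (-0.22). With no normalization the difference was 0.15, and in the deposited log2 table it was 0.11. With no normalization and in the deposited log2 table, the calls in IRI vs Control (-0.40 and -0.46) and IPC+IRI vs Control (-0.42 and -0.54) were lost too. The call in IPC+IRI vs Hemin was lost without IPC+IRI replicate 2 or 4 or Hemin replicate 2 or 4, when the difference was -0.41 to -0.30, and under 5 of 11 alternative settings (-0.65 to -0.23).

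The 4 probes of Vegfa lie on the minus strand of chromosome 17 between 46154387 and 46169098, and they differed. The probe farthest 3′, A_52_P638895 (from 46154387 to 46154446), was lower in IPC+IRI than in Control by -1.51 (limma adjusted p = 6.31e-08) and in Hemin than in Control by -0.83 (limma adjusted p = 0.000156). The next one, A_51_P482552 (from 46155512 to 46155571, printed in 10 spots), gave -0.27 (95% interval -0.66 to 0.12) and 0.082 (95% interval -0.31 to 0.48) in the same comparisons. Between IRI and Control A_52_P638895 gave -0.54 and A_51_P482552 gave -0.53, both called. The fall of Vegfa with IPC+IRI and with Hemin was therefore called on the last probe alone, and the fall in IRI on the 2 probes nearest the 3′ end.

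**Figure D2:**
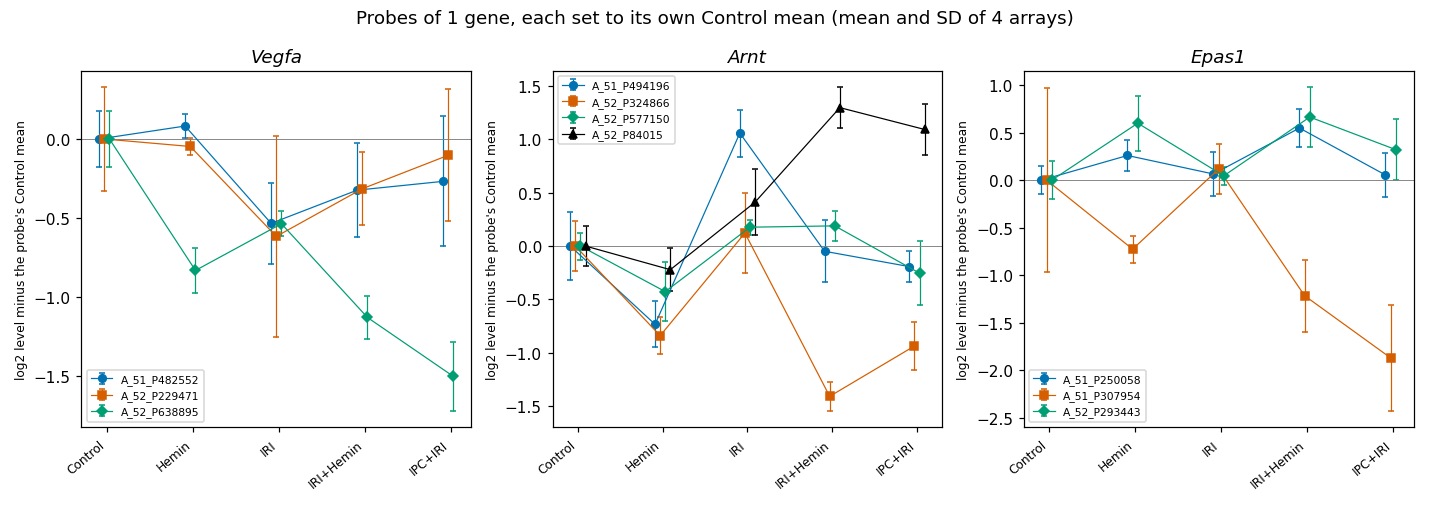
Mean log2 level of 3 probes of Vegfa and of each probe of Arnt and Epas1 in the 5 groups, minus the mean of the same probe in Control (vertical axis, bars show the SD of 4 arrays). The last Vegfa probe falls to -1.51 in IPC+IRI while A_51_P482552 lies at -0.27, and the Arnt probes A_52_P84015 and A_52_P324866 move apart.

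Bnip3 encodes a protein of the outer mitochondrial membrane that marks mitochondria for autophagy. Its probe lies on chromosome 7 from 146083077 to 146083136. Its levels were 3.92, 3.74, 3.71 and 3.53 in Control, 4.14, 4.12, 4.09 and 4.30 in IRI and 4.58, 4.51, 4.57 and 4.50 in IRI+Hemin. They were 4.13, 3.80, 3.81 and 4.07 in IPC+IRI and 3.79, 3.85, 3.95 and 3.82 in Hemin. The IRI+Hemin arrays stood above all others, and IRI stood above Control and Hemin.

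Bnip3 rose by 0.44 (standard error 0.10, limma adjusted p = 0.00143) in IRI against Control and was 0.38 higher again in IRI+Hemin than in IRI (limma adjusted p = 0.00518). IRI+Hemin exceeded Hemin by 0.69 (limma adjusted p = 3.97e-05). In IPC+IRI it differed from Control by 0.23 (95% interval 0.015 to 0.44) and from IRI by -0.21 (95% interval -0.42 to -0.0018), neither called. The rise in IRI missed the threshold with normexp (0.38), with no normalization (0.56) and in the deposited log2 table (0.25), and IRI+Hemin vs Hemin missed it with no normalization (0.61), all in the same direction.

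Ndrg1 encodes a stress-responsive protein of differentiated epithelia. Its probe lies on chromosome 15 from 66761057 to 66761116. Its levels spread widely among Control arrays, from 6.51 to 7.56, and ran from 6.95 to 7.35 in IRI, 6.88 to 7.18 in Hemin, 7.25 to 8.18 in IRI+Hemin and 7.54 to 7.96 in IPC+IRI. The IPC+IRI arrays stood above all IRI and Hemin arrays. Ndrg1 did not pass the test in IRI vs Control, with a difference of 0.11 (95% interval -0.32 to 0.53), and it was higher in IPC+IRI than in IRI by 0.55 (limma adjusted p = 0.0328) and than in Control by 0.66 (limma adjusted p = 0.0100). Against Hemin, of the same scan day, IPC+IRI was higher by 0.70 (standard error 0.20, limma adjusted p = 0.0117). In IRI+Hemin vs Hemin it was higher by 0.59 (limma adjusted p = 0.0238). That last call was lost without the IRI+Hemin replicate at 8.18 (difference 0.40, limma adjusted p = 0.0883) and without Hemin replicate 1 or 3 (0.55 and 0.57). The call in IPC+IRI vs IRI was lost without IRI replicate 2 or 4 or IPC+IRI replicate 1 or 3, when the difference was 0.47 to 0.56. IRI+Hemin and IRI differed by 0.45 (limma adjusted p = 0.0798), which was called with normexp (0.54) and with no normalization (0.81). Of 5 markers of the distal tubule and collecting duct, 4 were called higher and 1 lower in IPC+IRI vs Control, with summed levels of 5.70 to 6.13 against 5.11 to 5.55. None was called in IPC+IRI vs IRI (summed level 5.52 to 6.04 in IRI), and in IPC+IRI vs Hemin Slc12a3 alone was (0.74). Their part in the Ndrg1 result was not tested.

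Ak3l1 was lower where Hemin or IPC preceded the injury. Its probe lies on chromosome 4 from 101138678 to 101138737. Its levels were 3.20, 2.37, 3.35 and 2.61 in Control, 2.20, 2.73, 2.44 and 2.54 in IRI and 2.21, 2.18, 2.00 and 2.17 in Hemin. They were 1.53, 0.58, 0.92 and 0.40 in IPC+IRI and 0.44, -3.02, 0.026 and -0.030 in IRI+Hemin. The 8 arrays of the injured and treated groups stood below the other 12, with 1 IRI+Hemin array far below all.

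The difference was -3.12 (standard error 0.51, limma adjusted p = 0.000129) in IRI+Hemin vs IRI, -2.79 (limma adjusted p = 0.000329) in IRI+Hemin vs Hemin and -1.62 (limma adjusted p = 0.0154) in IPC+IRI vs IRI. The last call was lost with no normalization (-1.30). Without the replicate at -3.02, the first 2 were -2.33 (limma adjusted p = 1.06e-05) and -2.00 (limma adjusted p = 2.1e-05). IRI and Control differed by -0.40 (95% interval -1.47 to 0.67). The called differences above crossed scan days, so group and scan day cannot be told apart for them. Within the later scan day, IPC+IRI lay below Hemin by -1.28 (limma adjusted p = 0.0575), which was not called.

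Proximal tubule markers moved in the same comparisons. Of 8, 2 were called higher and 2 lower in IRI+Hemin vs IRI, the falls being Slc22a8 (-1.35) and Slc34a1 (-0.91), and 2 higher and 3 lower in IPC+IRI vs IRI, with -1.63 and -0.70 for the same 2 transporters. In IRI+Hemin vs Hemin, 4 were lower and none higher. The summed level of the 8 was 8.81 to 9.37 in IRI, 8.65 to 9.06 in IRI+Hemin, 8.92 to 9.26 in IPC+IRI and 9.16 to 9.24 in Hemin. Their part in the Ak3l1 result was not tested.

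The interaction of Hemin and IRI for Ak3l1 was -2.38 (limma adjusted p = 0.0514) and missed the threshold, and without the replicate at -3.02 it was -1.59 (limma adjusted p = 0.0112). It was also called without any other IRI+Hemin replicate or without IPC+IRI replicate 1 (-2.74 to -2.38), with a strict filter on dim genes and with the replicate number as a block. That replicate widened the spread shared by all groups, and without it Hemin vs Control (-0.74, limma adjusted p = 0.0210) and IPC+IRI vs Hemin (-1.28, limma adjusted p = 0.000506) were called as well. Ak3 of the same family, a matrix enzyme with its own gene, was also lower in IPC+IRI than in IRI, by -0.77, and in IRI+Hemin than in IRI, by -0.76, and it was lower in Hemin than in Control by -0.60. All 3 cross scan days, and within a day Ak3 differed by -0.096 in IRI vs Control and -0.27 in IPC+IRI vs Hemin, neither called.

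**Figure D3:**
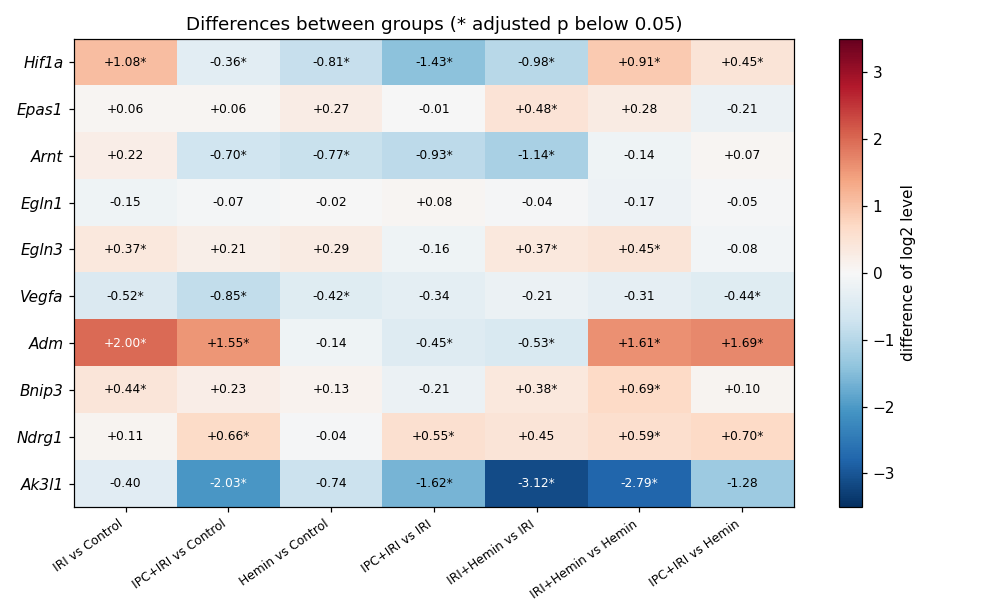
Difference of mean log2 level for each member (rows) in 7 comparisons (columns, first group minus second), coloured blue where the first group is lower and red where it is higher, with an asterisk at an adjusted p below 0.05. The Adm row is red wherever an injured group is set against an uninjured one, and the Ak3l1 row is darkest at -3.12 in IRI+Hemin vs IRI.

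Of the 7 comparisons, 2 set groups of the same scan day against each other and share no array, namely IRI vs Control and IPC+IRI vs Hemin. In the latter, 3 members were called higher and 1 lower, beside 13.2% and 22.8% of all genes. Adm, Hif1a and Vegfa were called in the same direction in both. Adm differed by 2.00 and 1.69, Hif1a by 1.08 and 0.45, and Vegfa by -0.52 and -0.44. The Hif1a call in IPC+IRI vs Hemin was lost without IPC+IRI replicate 2 (0.33) or Hemin replicate 2 (0.40), and with normexp (0.44), with no normalization (0.33) and in the deposited log2 table (0.33). The groups of the second comparison differ both in surgery and in treatment, so the values are set side by side only. Bnip3 differed by 0.44 in the first and 0.10 in the second, and Ndrg1 by 0.11 and 0.70, and these contrasts between the comparisons were not tested.

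**Figure D4:**
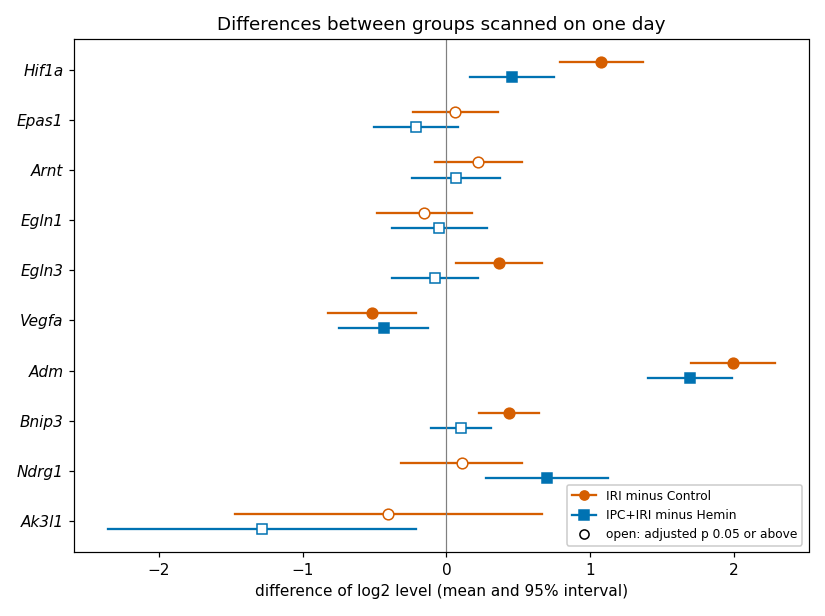
Difference of mean log2 level with its 95% interval (horizontal axis) for each member, in IRI minus Control (circles) and IPC+IRI minus Hemin (squares), the 2 comparisons made within a scan day. Filled symbols passed an adjusted p below 0.05, and the intervals of Adm lie from 1.70 to 2.29 and from 1.40 to 1.98.

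IRI+Hemin vs Hemin sets ischemia against no ischemia with Hemin in both groups, but its groups were scanned on different days. In it, 5 members were called higher and 1 lower, where 16.5% of all genes were higher and 27.9% lower. The 5 were Hif1a, Egln3, Adm, Bnip3 and Ndrg1, and for each the IRI+Hemin arrays stood above all Hemin arrays, as they did for 17.1% of all genes. In the interaction of Hemin and IRI, which draws on groups of every scan day, no member was called by limma, at 5.83% of all genes higher and 1.96% lower.

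Other genes of the pathway were read from 4 lists. The machinery of HIF control was represented by 15 genes. Between IRI and Control, 1 was called higher and 2 lower, namely Siah1a (1.07), a ubiquitin ligase of the family that degrades Egln enzymes, Siah2 of the same family (-0.55) and P4htm (-0.50), a prolyl hydroxylase of the endoplasmic reticulum. In IPC+IRI vs Hemin, within the later scan day, the same 3 were called in the same directions, Siah1a at 0.98, Siah2 at -1.08 and P4htm at -0.37, and no other gene of the list was called.

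The 4 comparisons of a group of the first scan day with one of a later day called more of this list, with 3 higher and 6 lower in IPC+IRI vs IRI, 3 and 8 in IRI+Hemin vs IRI, 3 and 8 in IPC+IRI vs Control, and 3 and 7 in Hemin vs Control. Over all genes these 4 called 18.5% to 26.3% higher and 17.6% to 32.8% lower, beside 13.2% to 17.1% and 22.8% to 33.9% in the other 3, and the list was not tested against all genes. IRI+Hemin vs Hemin, which sets the 2 later days against each other, called none higher and 1 lower (Siah2, -1.19). The 3 higher genes in each of the 4 were Egln2, which encodes the remaining HIF prolyl hydroxylase, and Tceb1 and Rbx1, subunits of the Vhl ligase. Ep300, a HIF coactivator, was lower in all 4, by -1.80 in IPC+IRI vs IRI and -2.01 in Hemin vs Control. Between IRI and Control, Egln2 differed by 0.27, Tceb1 by -0.34, Rbx1 by -0.092 and Ep300 by 0.079, none called, and none of the 4 was called in IPC+IRI vs Hemin. None of them was called in IRI+Hemin vs Hemin either. Every group of the later days had received Hemin or IPC, so for these genes the scan day and the treatment cannot be told apart.

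Among 44 other HIF targets, 43 were tested in IRI vs Control, with 16 higher, 8 lower and a median difference of 0.047, beside 17.1% higher, 33.9% lower and a median of -0.17 over all genes tested. Among those with the largest rise were Hmox1 (4.67), which degrades heme, and Hk2 (3.09), a hexokinase. The named falls were in Ppp1r3c, which targets a phosphatase to glycogen, the corepressor Rcor2 (-1.98) and the secreted glycoprotein Stc2 (-1.11). Ppp1r3c was not well above background on any IRI array, so its level there has only a bound. It was at least 1.96-fold lower in IRI than in Control (limma adjusted p = 2.98e-05), with the dim arrays set at the lowest signal among their probes well above background. The glycolytic enzymes Ldha and Pgk1, named after their values were seen, differed by -0.0042 (95% interval -0.22 to 0.21) and 0.047 (95% interval -0.20 to 0.30), neither called. In IPC+IRI vs IRI, 10 were higher and 11 lower of 42 tested (26.3% and 17.8% of all genes), with a median of -0.091, and Hmox1 (-2.07) and the glycolytic enzyme Eno1 (-1.28) were among those that fell most, while Stc2 (1.98), Rcor2 (1.24) and Ankrd37 (1.12) rose most. Among the targets in IRI+Hemin vs IRI, 7 were higher and 9 lower of 42 tested (26.3% and 18.1% of all genes), led by Stc2 (1.73), P4ha2 (1.01), a collagen prolyl hydroxylase, and Rcor2 (0.91) above and by Eno1 (-1.94) and the clock regulator Bhlhe40 (-1.18) below. In Hemin vs Control, 11 were higher and 5 lower of 43 tested, beside 18.5% and 17.6% of all genes. Some of these transcripts were dim, as Stc2 was well above background on 2 of 4 IRI arrays, Rcor2 on 3 of 4, and Hk2 on 3 of 4 Control arrays.

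Of the 8 receptors of the secreted members, Ramp3, which turns the calcitonin-like receptor into an adrenomedullin receptor, was higher in IRI than in Control by 1.66, and Ramp2, the other subunit with this role, was lower by -0.86. The same directions were called in IPC+IRI vs Hemin, at 1.02 and -0.97. Nrp2, a VEGF co-receptor, was higher by 0.76 in IRI vs Control and Kdr, the main signalling receptor for Vegfa, lower by -0.44. Between IRI+Hemin and IRI, 4 receptors were called higher and 1 lower, beside 26.3% and 18.1% of all genes. They included Flt1 (1.08), a decoy and signalling receptor for Vegfa, Calcrl (0.76), the adrenomedullin receptor itself, Ramp2 (0.74) and Ramp3 (-0.69). Of the 7 endothelial markers, Cdh5 was higher (1.39) and Tek lower (-0.97) in IRI vs Control, and 3 were lower and none higher in IPC+IRI vs Hemin (Tek -1.34, Tie1 -0.67 and Eng -0.50). Those of IRI+Hemin vs IRI are given above beside Epas1. Their part in the receptor differences was not tested. No receptor was called in Hemin vs Control by limma, where 18.5% of all genes were higher and 17.6% lower.

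Of 13 relatives of the members, 2 were higher and 5 lower in IRI vs Control, where 17.1% and 33.9% of all genes were called. Adm2 (1.29), a peptide of the same family as adrenomedullin, and Ndrg2 (0.56) rose, and Ak5 (-1.41), Ak1 (-1.02) and Vegfc (-0.87) fell most. Adm2 was lower by -2.44 in IPC+IRI vs IRI and by -2.24 in IRI+Hemin vs IRI, as Adm was lower, and in IPC+IRI vs Control by -1.15 (limma adjusted p = 0.0177), where Adm was higher by 1.55. Adm2 was dim, well above background on 4 of 4 IRI arrays, 3 of 4 Control arrays, 2 of 4 in IRI+Hemin and 1 of 4 in IPC+IRI, so the sizes of these falls are uncertain.

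**Figure D5:**
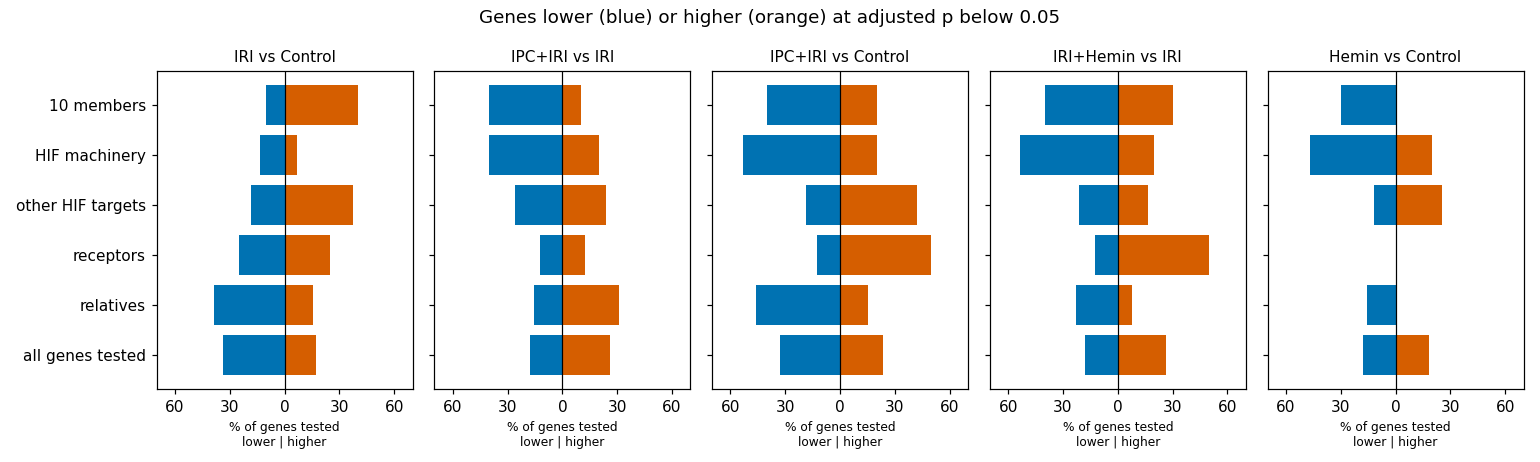
Share of the genes tested that were called higher (orange, to the right) or lower (blue, to the left) in each of 5 comparisons, for the 10 members, for 4 lists of related genes and for all genes tested. The member bars reach from 40 percent higher in IRI vs Control to none higher in Hemin vs Control, while all genes tested show 17.1% and 18.5% higher.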

How the data were processed

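Kidney RNA was hybridised to single-colour Agilent mouse arrays, 4 per group. The deposited scanner files hold intensity values that the authors extracted with Agilent Feature Extraction 9.5.3.1 per the file headers, which subtracts background and flags spots. The deposited log2 table, used as an alternative, holds log2 values that match, within rounding, the processed signal of each array as the authors left it, with no further scaling found.

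Here, readings flagged for uneven or outlying signal were left out, 1806 in all over the 20 arrays of 43379 spots each, controls excluded. Spots were averaged per probe (41174 probes), divided by the 75th percentile of the array and averaged over the probes of a gene. Genes needed at most 1 missing value and signal well above background on at least 3 of 4 arrays of 1 group compared. The R package limma (version 3.58.1, under R 4.3.3, tables read by data.table, version 1.17.8) fitted 5 group means over 20 arrays (15 residual degrees of freedom), with Benjamini-Hochberg adjustment over all genes tested, in place of the permutation method the study used. The code was tested on simulated data. The number of arrays limits the precision. Replicate numbers did not pair arrays.

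The members, and the lists of related genes and markers, were chosen with earlier results of these data known. From each list, up to 3 called genes in each direction are named per comparison, by size of the difference. Some items that this rule would name are not reported here. Background correction by normexp (offset 50), other normalizations, filters, probe summaries, the replicate block and leaving out each array were tried as alternatives.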

Additional observations from a re-analysis of the deposited data

Results flagged for a closer look

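In 4 of the 50 sets of 4 arrays (10 members in 5 groups) 1 array lay far from the other 3, as judged by Dixon's 95% criterion on the gap to the nearest array, which chance gives in about 1 set in 20. For Epas1 it was IRI+Hemin replicate 2, at a log2 level of 3.68 with the nearest array at 3.30. For Ak3l1 it was the same array, at -3.02 with the nearest at -0.030. For Arnt it was Control replicate 2, at -1.15 with the nearest at -0.73, and IPC+IRI replicate 3, at -1.79 with the nearest at -1.47. Without either of these 2 arrays the calls of Arnt stayed, with -0.81 and -0.62 in IPC+IRI vs Control.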

How the results depend on the processing

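Of 36 called member differences, 16 kept their call and direction under all 11 alternatives that could be run for them, 27 with each of 20 arrays left out in turn, and 14 under both. Ndrg1 has no value in the deposited log2 table. Hif1a and Adm in IRI vs Control and Hif1a in IPC+IRI vs IRI were among the 14. With no normalization between arrays, Hif1a in IPC+IRI vs Control (0.078), Vegfa in Hemin vs Control (0.15) and Ndrg1 in Hemin vs Control (0.52) changed direction. With the mean of log2 values over probes, so did Epas1 in IPC+IRI vs Control (-0.50) and in IRI+Hemin vs IRI (-0.077) and Arnt in IRI+Hemin vs Hemin (0.56), and with the deposited log2 table Epas1 in IRI+Hemin vs IRI (-0.31) and Vegfa in Hemin vs Control (0.11). The cause was not tested. A further 48 differences changed sign while called in neither setting, and 25 did so with arrays left out.

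The number of members called in IRI vs Control (5) was 3 with normexp, 2 with no normalization and 2 in the deposited log2 table. In IPC+IRI vs IRI (5) it was 2 with no normalization and 3 in the deposited table, and in IPC+IRI vs Control (6) and Hemin vs Control (3) it was 3 and 1 in that table. In IPC+IRI vs Hemin (4) it was 2 with no normalization and 2 in that table. The interaction (0) gave 1 with a strict filter, 1 with the replicate block and 2 with each probe tested on its own. Leaving out single arrays gave 2 to 5 in IPC+IRI vs Hemin and 0 to 1 in the interaction.

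Same-numbered arrays did not deviate together, with correlations of -0.38 to 0.21 over 40 pairs. With the replicate number as a block, Hif1a in IPC+IRI vs Control (-0.36, limma adjusted p = 0.0564) and Vegfa in Hemin vs Control (-0.42, limma adjusted p = 0.0560) lost their calls. A random slide block could not be fitted and was not run.

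Over all genes, normexp called 3186 in IRI vs Control (9026 in the report), 4769 in IPC+IRI vs IRI (7793), 5790 in IPC+IRI vs Control (10274), 3693 in Hemin vs Control (6709), 4345 in IRI+Hemin vs Hemin (8262), 2787 in IPC+IRI vs Hemin (6671) and 146 in the interaction (1485). With no normalization, 5366, 4896, 4091 and 405 were called in IRI vs Control, IRI+Hemin vs Hemin, IPC+IRI vs Hemin and the interaction. Of the called genes, the share that was higher also moved. It went from 33.5% to 56.2% with normexp and 19.6% in the deposited table for IRI vs Control, from 59.6% to 48.9%, 90.7% with no normalization and 73.0% in that table for IPC+IRI vs IRI, and from 59.2% to 44.6%, 91.4% and 76.7% for IRI+Hemin vs IRI. For IPC+IRI vs Control it went from 41.5% to 75.2% with no normalization, for Hemin vs Control from 51.3% to 94.7%, and to 35.2% with the percentile over probes well above background on all arrays, and for IPC+IRI vs Hemin from 36.6% to 49.2% with normexp, 25.2% with no normalization and 23.8% in the deposited table. For IRI+Hemin vs Hemin it went from 37.1% to 47.2% with normexp, and for the interaction from 74.9% to 64.6% with quantile normalization and 88.8% in the deposited table. No normalization moved the median of all genes in Hemin vs Control from 0.057 to 0.62, with 8822 higher and 490 lower.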
